A study of Mus musculus with 6 samples.

Results

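The genes described here mark the epithelium that lines the bile ducts of the liver and the ductular reaction, the appearance of small duct-like structures of such cells in injured liver. They are 9 genes chosen by symbol, Krt7, Krt19, Krt23, Epcam, Sox9, Spp1, Cftr, Prom1 and Cd24a, of 18429 genes with any count, and all 9 were found in the files. They were measured by bulk RNA-seq in the livers of 6 male Mettl14f/f mice, in which both copies of Mettl14 carry loxP sites and which had started a high-fat diet (HFD) at 8 weeks of age. After 10 weeks of HFD, 3 mice received AAV8-TBG-Cre, labelled METTL14 KO, and 3 received AAV8-TBG-GFP as the control, labelled WT although these mice carried the floxed alleles too. Livers were taken 8 weeks after the injection. The TBG promoter directs Cre to hepatocytes, so the cells of the bile ducts were not its target. The groups are called GFP livers and Cre livers below.

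Cholangiocytes, the cells of the bile ducts, form a thin epithelium that modifies bile by secreting chloride, bicarbonate and water. They hold keratins that hepatocytes lack, and they share the adhesion protein EPCAM and the transcription factor SOX9 with bipotent progenitor cells of the liver. In chronic injury, duct-like cells with these markers spread from the portal tracts, either from ducts or from hepatocytes that take on biliary traits. In whole liver RNA these genes are a small fraction of the total, and more cells of a type and more RNA per cell cannot be told apart.

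The expected counts, which are estimated numbers of fragments, added up to between 20356466 and 21010527 per library. The labelled tissue held its defining genes, with 12 hepatocyte markers summing to between 101300 and 143200 CPM (counts scaled to a common library size after TMM normalization). The targeted gene Mettl14 had 6.30, 6.43 and 5.81 CPM in GFP livers 1, 2 and 3 and 4.96, 5.38 and 4.86 in Cre livers 1, 2 and 3, lower without overlap but not called (log2 fold change -0.29, SE 0.15; edgeR adjusted p = 0.336). These counts cover the whole gene, including any exon outside the deleted part, and cells in which the vector is not active. Of the library names, 3 are short numbers (GFP livers 1 and 2 and Cre liver 1) and the others long ones, for a reason the labels do not give. These are called short and long names, and values within each form are given beside the results. Cre liver 1 is the only Cre liver among short names, and GFP liver 3 the only GFP liver among long names. A ratio within a form therefore rests on a single liver for that group.

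Whether biliary genes differed between Cre and GFP livers was asked gene by gene in edgeR's quasi-likelihood test. All 9 genes had a positive log2 fold change, that is, a higher level in Cre livers, with a median of 2.39, whereas the median over the 13431 genes tested was -0.0062 and 49.0% of them were positive. Spp1, Sox9 and Cd24a rose, with an adjusted p under 0.05 (Benjamini-Hochberg over all genes tested), a call that 0.484% of all genes tested received in this direction and 0.447% in the other. At the looser unadjusted threshold (p under 0.05 and at least 1.2-fold), 8 of the 9 genes were higher and 0 lower, against 12.0% and 8.41% of all genes tested. For the same 8 genes every Cre liver lay above every GFP liver, which held for 14.0% of all genes tested, and the reverse order held for 13.0%. Krt23 was the exception in both counts. The shares of all genes given here also stand beside the counts for the gene lists below. Cre liver 2 had the highest level of each of the 9 genes.

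The adjusted calls depended on single mice, and those of all genes moved in the same way. Of the 9 genes, 3 were called with all libraries, 8 without Cre liver 1, and 0 in edgeR when any 1 of the other 5 libraries was left out, when 8 or 9 genes still passed the unadjusted threshold. The share of all genes called higher by the adjusted p was 4.21% without Cre liver 1 and 0 to 0.0292% without any of the others, so the shift was not particular to the 9. At the unadjusted threshold 8.18% to 11.4% of all genes were called higher when 1 of those other 5 was left out. DESeq2 called 8 of the 9 with all libraries, and 4.06% of all genes. All 9 genes passed the filter on low counts, which asks for about 10 counts in at least 3 libraries. Cftr reached that level in 0 of the GFP libraries and Krt7 in 2 of them, so both passed through their Cre libraries. They make up 2 of the 8 genes that were higher at the unadjusted threshold and are also among those without overlap. These 2 counts are therefore a description.

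**Figure D1:**
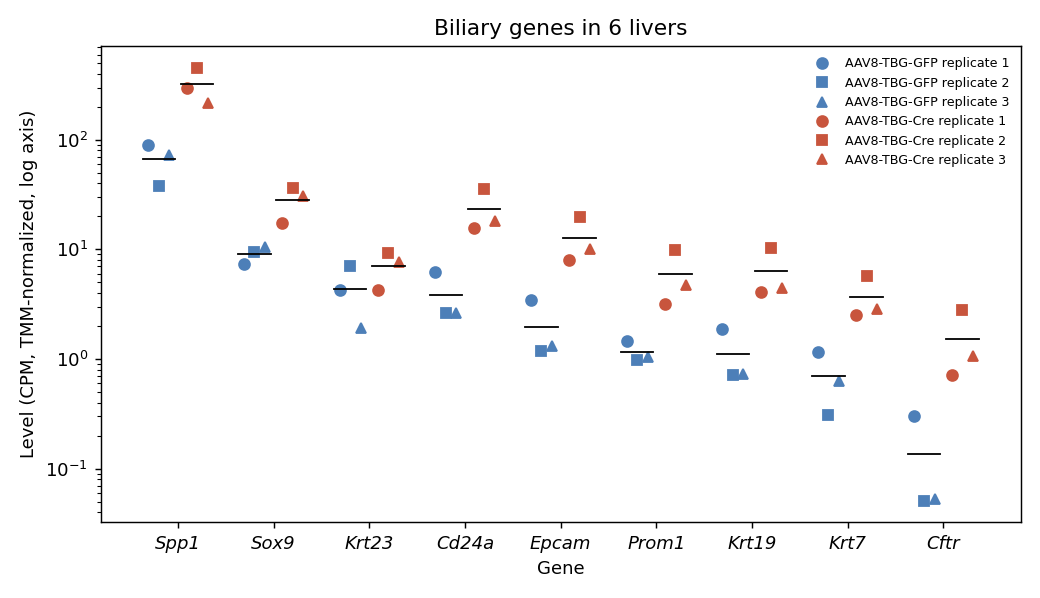
Level of the 9 biliary genes in each liver, in TMM-normalized CPM on a log axis, with 1 point per mouse and a black bar at the mean of each group of 3. For every gene but Krt23 the AAV8-TBG-Cre points lie above the AAV8-TBG-GFP points, and AAV8-TBG-Cre replicate 2 is the highest point of each gene.

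Among the keratins, Krt7 and Krt19 form the filaments that mark bile duct cells in tissue sections, and neither is a filament protein of normal hepatocytes. Krt7 (chr15:101412403-101427806, GRCm38.p6) had 1.17, 0.306 and 0.628 CPM in GFP livers 1, 2 and 3 and 2.53, 5.67 and 2.89 in Cre livers 1, 2 and 3. The lowest Cre liver was 2.16 times as high as the highest GFP liver. The means were 0.701 ± 0.436 (SD, n = 3) and 3.70 ± 1.72 (SD, n = 3), and the log2 fold change was 2.39 (standard error, SE, 0.51; edgeR adjusted p = 0.0677). It was 1.78 among libraries with short names and 2.77 among those with long names, as a log2 ratio of means.

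Krt19 (chr11:100140810-100145926) had 1.88, 0.714 and 0.733 CPM in GFP livers and 4.10, 10.4 and 4.43 in Cre livers. GFP liver 1 was the highest control and Cre liver 2 stood above the other 2 Cre livers, as for Krt7. The log2 fold change was 2.50 (SE 0.52; edgeR adjusted p = 0.0619), with log2 ratios of 1.66 within short names and 3.33 within long names. Most of its counts were assigned to the transcript NM_008471, with 85.3, 247 and 88.3 expected counts in Cre livers and 32.4, 8.83 and 14.0 in GFP livers. The shorter NM_001313963 had at most 5.17.

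Krt23, a type I keratin that has also been described in hepatocytes of injured or fatty liver, did not follow Krt7 and Krt19. Its level was 4.27, 6.99 and 1.94 CPM in GFP livers and 4.25, 9.32 and 7.61 in Cre livers (chr11:99477973-99493120). The groups overlapped, since Cre liver 1 lay below GFP livers 1 and 2. The log2 fold change was 0.68 (SE 0.46; edgeR adjusted p = 0.444; exact two-sided permutation test, p = 0.3). In the same permutation test each of the other member genes had p = 0.1, the smallest value it can give here. The log2 ratio of Krt23 took opposite signs in the 2 forms of the name, with -0.41 among short names and 2.13 among long names.

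The keratins shared by ducts and hepatocytes were not called. Krt8 and Krt18, the filament pair of hepatocytes and the partners of KRT7 and KRT19 in ducts, had 264 ± 59.1 and 175 ± 56.7 CPM (SD, n = 3) in GFP livers and 246 ± 31.3 and 212 ± 49.7 (SD, n = 3) in Cre livers. Their log2 fold changes were -0.10 (SE 0.19) and 0.27 (SE 0.26), with adjusted p-values of 0.801 and 0.601 from edgeR. Of 15 other keratin genes with any count, 3 were tested (Krt8, Krt18 and Krt10) and 0 were called at either threshold in edgeR. The other 12 had at most 11 counts in a library.

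Epcam, Cd24a and Prom1 encode proteins of the cell surface. EPCAM is an adhesion molecule of epithelia that mature hepatocytes lack. Epcam (chr17:87635979-87651127) had 3.46, 1.17 and 1.31 CPM in GFP livers and 8.02, 20.0 and 10.2 in Cre livers. The groups were separated by a factor of 2.32 between the nearest livers. Its log2 fold change of 2.68 (SE 0.50; edgeR adjusted p = 0.0560) was exceeded by 0.477% of all genes tested. Within short names the log2 ratio was 1.79 and within long names 3.52.

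Cd24a encodes a small glycoprotein anchored in the membrane, found on biliary and progenitor cells but also on B cells, neutrophils and red cell precursors. It rose from 6.25, 2.65 and 2.62 CPM in GFP livers to 15.8, 35.8 and 18.1 in Cre livers (chr10:43579169-43584265). The log2 fold change was 2.60 (SE 0.44; edgeR adjusted p = 0.0471), 1.83 within short names and 3.36 within long names as log2 ratios. Markers of those blood cells were read beside it. The summed level of 8 neutrophil markers was 10.2 to 10.7 CPM in GFP livers and 16.6 to 18.1 in Cre livers, of 6 B cell markers 3.32 to 3.96 and 4.38 to 9.24, and of 6 erythroid markers 375 to 643 and 338 to 705. The groups did not overlap for neutrophils and B cells and overlapped for erythroid markers. Of the 6 B cell markers 5 had counts and 2 were tested. Of these 2, Cd79a did not overlap but was tested through its Cre libraries. The other, Cd22, overlapped, with 2.49, 1.99 and 2.09 CPM in GFP livers and 1.96, 5.63 and 2.79 in Cre livers. S100a8, a neutrophil calprotectin subunit, was called higher, with 5, 6 and 5 counts in GFP livers and 24, 28 and 27 in Cre livers (edgeR adjusted p = 0.0409), and was tested through its Cre libraries. Of the 4 neutrophil markers tested, 3 were higher and 1, Ly6g, lower at the unadjusted threshold. Ly6g had 5.0, 6.0 and 5.2 CPM in GFP livers and 4.3, 3.7 and 3.3 in Cre livers (log2 fold change -0.52; edgeR adjusted p = 0.177). The part of these cells in the Cd24a level was not tested.

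Prom1 encodes prominin 1 (CD133), a membrane protein of cell protrusions that serves as a progenitor marker. Its level was 1.47, 0.969 and 1.05 CPM in GFP livers and 3.20, 9.86 and 4.72 in Cre livers (chr5:43993621-44102047). The GFP livers lay within a factor of 1.52 of each other and the Cre livers within 3.08. The log2 fold change was 2.35 (SE 0.45; edgeR adjusted p = 0.0587), with 1.39 within short names and 2.80 within long names. The counts of Prom1 were split between transcripts in ways that differed from library to library. NM_008935 took 100%, 93.2% and 41.5% of them in the Cre livers and NM_001163584 the remainder, but in GFP liver 1 all 29 counts went to NM_001163584, so no shift in transcript use is read from these estimates.

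Partners of the surface proteins were measured too. Spint1, which encodes an inhibitor of the membrane protease matriptase, rose from 0.599 ± 0.189 CPM (SD, n = 3) to 3.93 ± 2.05 (SD, n = 3) (log2 fold change 2.71; edgeR adjusted p = 0.0454). St14, the gene of matriptase itself, which cleaves EPCAM, rose from 0.978 ± 0.220 to 8.44 ± 5.17 CPM (SD, n = 3) (log2 fold change 3.11; edgeR adjusted p = 0.0396). Cldn7, whose claudin binds EPCAM, had a log2 fold change of 2.30 (edgeR adjusted p = 0.0596). Spint2, a related inhibitor, had 77.3 ± 0.722 and 93.2 ± 7.06 CPM (SD, n = 3) (log2 fold change 0.27; edgeR adjusted p = 0.188). Spint1 reached the filter level in 1 of the GFP libraries and Cldn7 in 2, so both were tested through their Cre libraries, which bears on the Spint1 call. Siglecg, a receptor for CD24, had too few counts to be tested.

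Sox9 encodes a transcription factor that specifies bile duct cells in the embryo and is also present at a low level in hepatocytes next to the portal tracts. It rose from 7.37, 9.49 and 10.4 CPM in GFP livers to 17.6, 36.1 and 30.7 in Cre livers (chr11:112782210-112787757). It was the steadiest of the 9 genes among the controls, whose highest and lowest livers differed by a factor of 1.41. The log2 fold change of 1.63 (SE 0.27; edgeR adjusted p = 0.0454) was smaller than those of Epcam, Krt19 and Krt7, and its standard error was the smallest of the 9. The log2 ratio was 1.06 within short names and 1.68 within long names. Sox4, which acts with SOX9 in duct formation, had 2.61 ± 0.773 and 14.0 ± 8.26 CPM (SD, n = 3) (log2 fold change 2.42; edgeR adjusted p = 0.0526).

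Spp1 encodes osteopontin, a secreted phosphoprotein of the matrix that is made by bile duct cells and also by macrophages and stellate cells. It had 89.0, 38.0 and 73.3 CPM in GFP livers and 295, 457 and 219 in Cre livers (chr5:104435111-104441053). It rose by a log2 fold change of 2.28 (SE 0.37; edgeR adjusted p = 0.0444), the smallest adjusted p-value of the 9, and the log2 ratio was nearly alike within short names (2.22) and long names (2.21). The transcript NM_009263 took between 94.0% and 98.8% of its counts in every library. Unlike the other genes, Spp1 was higher in Cre liver 1 than in Cre liver 3.

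Most markers of macrophages, which also make osteopontin, were higher too. All 8 markers of lipid-associated macrophages, the scavenging macrophages of fatty liver, were higher at the unadjusted threshold, with a median log2 fold change of 1.97, and 1, Lpl, rose by the adjusted p-value. Their summed level was 38.7 to 78.5 CPM in GFP livers and 149 to 394 in Cre livers. Trem2, which defines these macrophages, had 1.53, 1.07 and 2.67 CPM in GFP livers and 3.25, 10.4 and 5.82 in Cre livers. The part of macrophages in the Spp1 level was not tested. Among the osteopontin receptors, Cd44 had 8.83 ± 1.19 and 23.0 ± 11.3 CPM (SD, n = 3) (log2 fold change 1.38; edgeR adjusted p = 0.0785). Itgav, Itga9 and Itgb1 had log2 fold changes of 0.35, 0.49 and 0.20 with adjusted p-values of 0.274, 0.350 and 0.362 from edgeR.

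Cftr encodes the chloride channel through which cholangiocytes start bicarbonate secretion. It had 6, 1 and 1 counts in the GFP libraries and 15, 68 and 22 in the Cre libraries (chr6:18170687-18322770). All 3 Cre libraries had more counts than any control, and Cre liver 2 had most of them. Over each group, 8 counts stood against 105, a ratio of 11.6 after scaling to library size, with a 95% exact interval of 5.67 to 27.6 that covers counting error only. The pseudogene Gm15595 overlaps Cftr in the annotation, and fragments of the pair may not be told apart. The log2 fold change was 3.43 (SE 0.80; edgeR adjusted p = 0.0789), and the log2 ratio was 2.01 within short names and 5.20 within long names. Sctr, the secretin receptor that opens this channel in ducts, had 0, 2 and 4 counts in GFP livers and 13, 44 and 12 in Cre livers (edgeR adjusted p = 0.0933). Slc4a2, the chloride and bicarbonate exchanger, and Aqp1, a water channel, which are not confined to ducts in liver, had log2 fold changes of 0.0090 (SE 0.10) and -0.20 (SE 0.23), with adjusted p-values of 0.973 and 0.682 from edgeR.

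**Figure D2:**
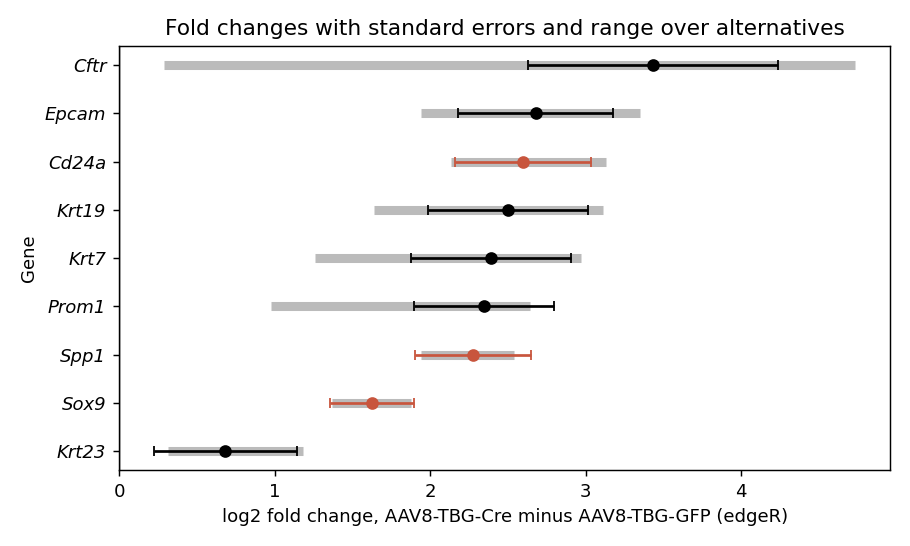
Log2 fold change of AAV8-TBG-Cre minus AAV8-TBG-GFP for the 9 genes in edgeR, with the standard error as a black or red bar and, in grey, the range of the same value over up to 16 alternative analyses. Red marks an adjusted p-value under 0.05, and no grey bar crosses 0.

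Levels per length were compared in FPKM, in which a library's fragments are divided by depth and transcript length. In GFP livers the order by mean FPKM was Spp1, Krt23, Sox9, Cd24a, Epcam, Krt19, Krt7, Prom1 and Cftr, from 44.3 ± 17.7 (SD, n = 3) for Spp1 to 0.0233 ± 0.0231 (SD, n = 3) for Cftr. Only the first and the last of these steps exceeded the spread between livers, since neighbours from Krt23 to Prom1 had overlapping ranges. In Cre livers Spp1 stood at 248 ± 117 (SD, n = 3) and Cftr at 0.260 ± 0.218 (SD, n = 3), and again all neighbours in between overlapped. Cd24a came second there, with 13.9 ± 7.99 FPKM (SD, n = 3) against 2.00 ± 1.14 (SD, n = 3) in GFP livers, and Krt23 sixth, with 4.90 ± 2.14 against 2.69 ± 1.57.

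The genes also differed in how closely they followed each other from liver to liver. Each gene's CPM was divided by that of Epcam in the same library. The ratio of Cd24a to Epcam stayed between 1.78 and 2.26 in all 6 livers, although Epcam itself ranged from 1.17 to 20.0 CPM. The ratio of Krt19 to Epcam stayed between 0.436 and 0.609, and that of Krt7 between 0.261 and 0.480. The ratios of Krt23 and Sox9 varied most, by factors of 12.8 and 4.48. For Sox9 the ratio was 8.09 and 7.96 in GFP livers 2 and 3, where Epcam was lowest, but 2.13 in GFP liver 1 and 1.81 to 3.02 in Cre livers. For Krt23 the ratio was 1.24 to 5.96 in GFP livers and 0.467 to 0.749 in Cre livers. These ratios were chosen after the values were seen and are given as a description, with no test.

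**Figure D3:**
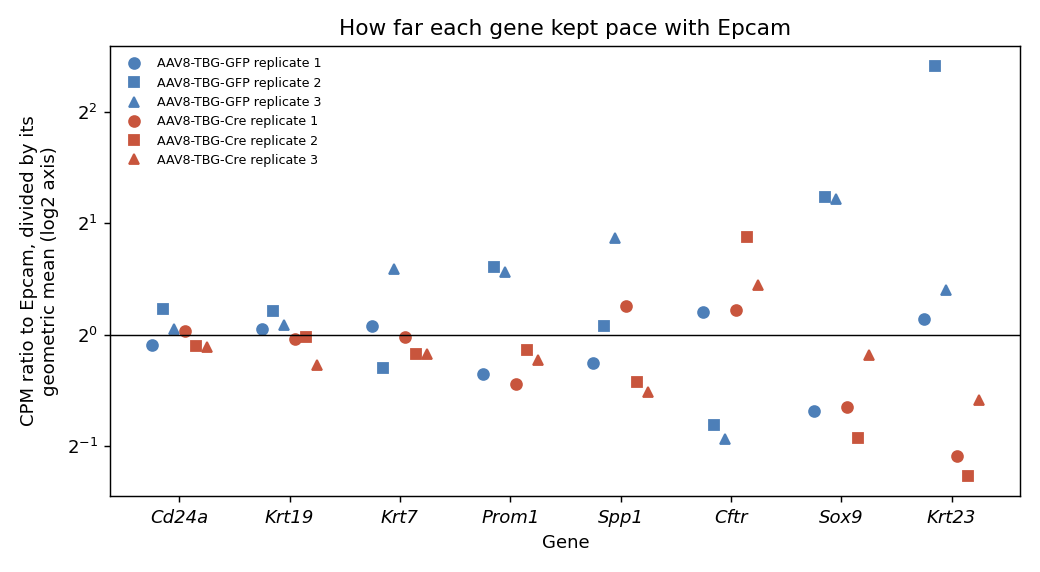
Ratio of each gene's CPM to that of Epcam in the same liver, divided by its geometric mean over the 6 livers, on a log2 axis, with genes ordered by the spread. Cd24a and Krt19 lie close to the line at 1 in all 6 livers, whereas Sox9 lies above it in AAV8-TBG-GFP replicates 2 and 3. Krt23 lies above it in every AAV8-TBG-GFP replicate and below it in every AAV8-TBG-Cre replicate.

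Within the GFP group the livers also differed. GFP liver 1 had the highest level of 7 of the 9 genes among the controls, all but Sox9 and Krt23, and GFP liver 2 the lowest level of 6. Among Cre livers, liver 2 was highest for 9 genes and liver 1 lowest for 8. The summed CPM of the 9 genes was 115, 60.4 and 92.0 in GFP livers and 352, 587 and 299 in Cre livers, of which Spp1 made up 63.0% to 84.0%. Without Spp1 the sum was 26.2, 22.3 and 18.7 in GFP livers and 56.2, 130 and 79.7 in Cre livers.

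Of 22 other genes of biliary epithelium, 20 had enough counts to be tested. At the unadjusted threshold 14 were higher and 0 lower, and 5 rose by the adjusted p-value, namely Cdh1, St14, Elf3, Cldn4 and Tspan8. Of the 20, 6 were below the filter level in at least 1 GFP library and were tested through their Cre libraries, among them Cldn4 (0 GFP libraries at that level) and Elf3 (2). They make up 2 of the 5 adjusted calls and 5 of the 14 unadjusted ones, so these counts are a description. The median log2 fold change of the 20 was 2.17. Cdh1, the gene of E-cadherin, had the smallest p-value, with 20.0 ± 3.54 and 70.4 ± 6.95 CPM (SD, n = 3), at log2 fold change 1.82 (SE 0.15; edgeR adjusted p = 0.0149). Its level in Cre livers was 62.70, 72.45 and 76.15 CPM, highest in Cre liver 3. Epcam, with 8.02, 20.0 and 10.2 CPM in the same livers, was instead highest in Cre liver 2 and spread more widely. Which cells held the Cdh1 RNA was not tested. Elf3, an epithelial transcription factor, rose with a log2 fold change of 2.69 (edgeR adjusted p = 0.0396), and Tspan8, a membrane tetraspanin, with 3.15 (edgeR adjusted p = 0.0460). Cldn4, a claudin of tight junctions, had 1, 2 and 1 counts in GFP livers and 31, 194 and 51 in Cre livers (edgeR adjusted p = 0.0409), and its fitted fold change depends on the prior count added to such low values.

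Other genes of the list were not called by the adjusted p. Bicc1, Dcdc2a and Pkhd1, whose loss is tied to cysts or to disease of the ducts, had log2 fold changes of 2.33, 2.25 and 1.16 with adjusted p-values of 0.0552, 0.0619 and 0.0796 from edgeR. Slc10a2, the bile acid transporter by which ducts take bile acids back, had 0.13 as its log2 fold change (SE 0.22; edgeR adjusted p = 0.785). Ggt1 had too few counts to be tested.

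**Figure D4:**
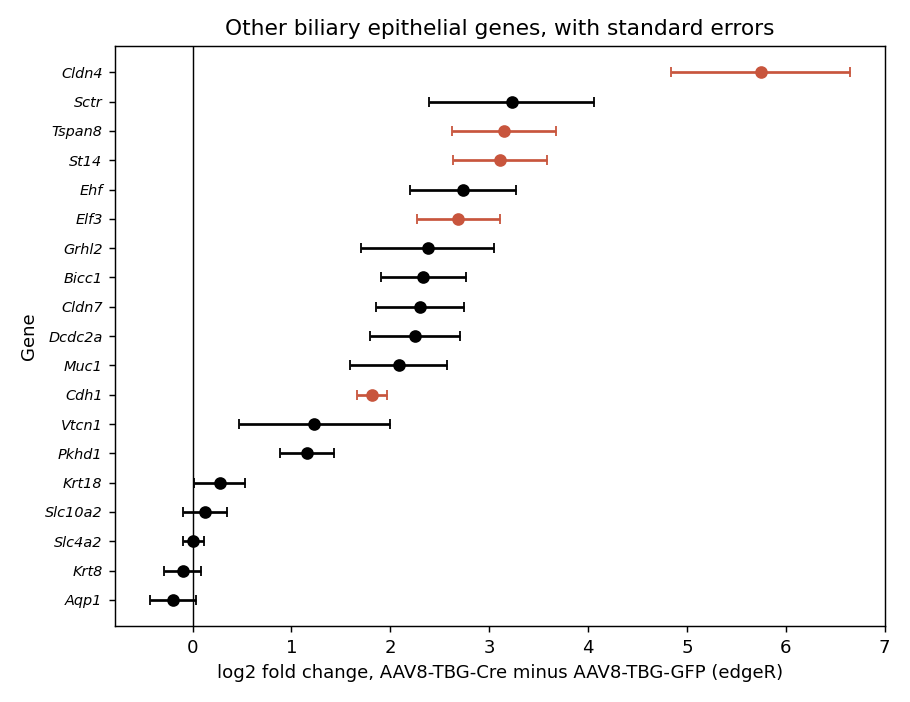
Log2 fold change of AAV8-TBG-Cre minus AAV8-TBG-GFP, with its standard error, for 19 of the 20 other biliary genes tested in edgeR. Red marks the 5 genes with an adjusted p-value under 0.05, and the genes from Krt18 downward, several of them also expressed in hepatocytes, lie near 0.

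Of 14 partners of the 9 genes, 6 of them also in the biliary list, 13 were tested, 6 were higher and 0 lower at the unadjusted threshold, and 1, Spint1, rose by the adjusted p-value. Of the 6 higher genes, 3 were below the filter level in at least 1 GFP library, Spint1 among them, and were tested through their Cre libraries. The median log2 fold change of the partners was 0.35. Of 20 ligands, receptors and targets of pathways that act on ducts, 15 were tested. At the unadjusted threshold 5 were higher and 1 lower, against 12.0% and 8.41% of all genes tested. There were 0 calls by the adjusted p-value in edgeR, and the median was 0.32. Of the 5, Tgfb2 and Hey1 reached the filter level in 2 GFP libraries each. Both were tested through their Cre libraries, so this count is a description. Tgfb2, a ligand of the TGF-beta family, had 0.633 ± 0.208 and 3.10 ± 1.36 CPM (SD, n = 3) (log2 fold change 2.28; edgeR adjusted p = 0.0552). Jag1, the Notch ligand needed for duct formation, had 4.32 ± 0.798 and 7.98 ± 2.60 CPM (SD, n = 3) (log2 fold change 0.89; edgeR adjusted p = 0.128). Met, the receptor of hepatocyte growth factor, had 113 ± 17.6 and 81.5 ± 12.9 CPM (SD, n = 3) (log2 fold change -0.47; edgeR adjusted p = 0.161).

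Markers of other liver cells were read in the same libraries. Of 12 hepatocyte markers 1 was higher and 1 lower at the unadjusted threshold, and their summed level was 117200 to 143200 CPM in GFP livers and 101300 to 124600 in Cre livers. Of 10 macrophage and Kupffer cell markers 7 were higher, with a median log2 fold change of 0.62 and sums of 290 to 311 and 384 to 533 CPM. Of these, 1 rose by the adjusted p, Cd5l, a secreted protein of Kupffer cells, from 48.0, 46.9 and 51.8 CPM in GFP livers to 83.1, 87.4 and 68.8 in Cre livers (log2 fold change 0.71; edgeR adjusted p = 0.0471). Clec4f, Timd4 and Marco of the same list had log2 fold changes of 0.288, 0.291 and -0.749 and were not called at either threshold. Of 10 stellate cell and fibroblast markers 4 were higher (Col3a1, Col1a1, Lum and Pdgfrb), with a median of 0.48 and sums of 228 to 348 and 424 to 895. Lrat, Reln and Acta2 had log2 fold changes of -0.25, -0.105 and -0.37, and Des, Dcn and Thy1 of 0.13, 0.38 and 0.57. None of these was called at either threshold. In Cre liver 2, whose sum was 895 CPM, Col1a1 had 194.5 and Col3a1 299.7. Of 9 endothelial markers 0 were higher and 1 lower, with a median of -0.32.

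Cells of the liver surface and of the neighbouring pancreas also hold keratins 7 and 19. Of 7 mesothelial markers 4 were tested, all of them below the filter level in at least 1 GFP library, and 2 were higher at the unadjusted threshold, Msln and Gpm6a, and the list summed to 1.33 to 3.98 CPM in GFP livers and 3.96 to 10.5 in Cre livers, so that the groups just overlapped. Msln, which defines mesothelium, had 5, 5 and 8 counts in GFP livers and 12, 45 and 22 in Cre livers. The part of mesothelium in the keratin levels was not tested. Markers of the exocrine pancreas were at or near 0, with sums of at most 0.765 CPM, and 3 of the 6 had no count in any library. Of the remaining lists, 3 of 4 neutrophil markers tested, 1 of 2 B cell markers, 1 of 3 T and NK cell markers and 0 of 3 erythroid markers were higher at the unadjusted threshold, and 1 neutrophil and 1 T and NK cell marker were lower. The shares of all genes tested were 12.0% higher and 8.41% lower. Among the higher ones, S100a8, the B cell marker Cd79a and the T cell marker Cd8a were tested through their Cre libraries, so these counts are a description.

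**Figure D5:**
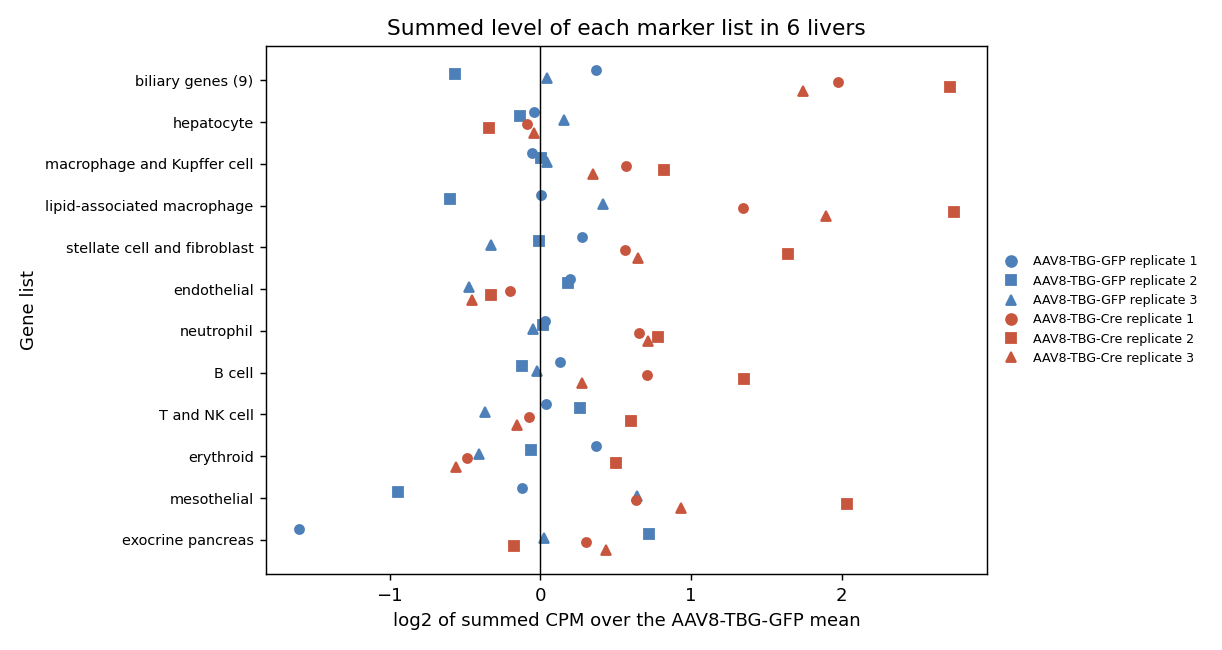
Summed CPM of the 9 biliary genes and of each marker list in each liver, as the log2 ratio to the mean of the AAV8-TBG-GFP livers. For the biliary genes and the lipid-associated macrophage markers all AAV8-TBG-Cre livers lie to the right of all AAV8-TBG-GFP livers. The same holds for the macrophage and Kupffer cell, stellate cell and fibroblast, neutrophil and B cell markers. For the other lists, endothelial and hepatocyte markers among them, the groups overlap.

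To find the genes whose pattern over the 6 livers was most like that of the 9, each gene's log2 level was centred on its mean and set against the mean centred profile of the 9. Among 11295 other genes with a mean log2 CPM of at least 1, Lamc3, a laminin chain, was nearest, with a root mean square difference of 0.11 on the log2 scale over the 6 libraries. Cyp1b1, a cytochrome P450, followed with 0.14, Mmp2, a matrix metalloproteinase, with 0.15, Sox4 with 0.18 and Emp1, an epithelial membrane protein, with 0.19. With the average log2 CPM that edgeR gives in place of the plain mean, 11430 genes were compared and 2 scarcer genes came among the nearest, Tgfb2 with 0.11 and Spint1 with 0.17. Lamc3 had 4.63, 2.91 and 3.04 CPM in GFP livers and 9.54, 22.6 and 13.4 in Cre livers. Of the 9 genes themselves Prom1 was nearest to the profile (0.15) and Krt23 farthest (0.92).

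Sequences upstream of transcript starts were read from RefSeq (GRCm38.p6), which gave windows for 6 of the 9 genes (Krt7, Krt23, Epcam, Spp1, Cftr and Prom1). A start can lie inside the annotated span of its gene, and its window then does so too. The 250 bases before the start were searched on both strands for short motifs of factors that act in bile ducts: GGAATG (TEAD), TGGGAA (RBPJ, the Notch effector), AACAAT (SOX) and TGANTCA (AP-1). Of all 32851 windows of this length, 12.6%, 21.6%, 9.42% and 6.75% held them. Matches are in capitals, and 4 windows are shown because that of Prom1 holds matches, whereas those of Spp1, Epcam and Krt23 hold none although Spp1 rose and Krt23 was not called.
Prom1 (chr5:44101737-44101986, minus strand): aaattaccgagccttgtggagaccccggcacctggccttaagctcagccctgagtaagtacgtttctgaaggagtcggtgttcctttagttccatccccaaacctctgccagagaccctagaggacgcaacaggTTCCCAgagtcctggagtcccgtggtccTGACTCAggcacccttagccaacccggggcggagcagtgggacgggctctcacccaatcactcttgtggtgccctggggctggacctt
Spp1 (chr5:104434861-104435110, plus strand): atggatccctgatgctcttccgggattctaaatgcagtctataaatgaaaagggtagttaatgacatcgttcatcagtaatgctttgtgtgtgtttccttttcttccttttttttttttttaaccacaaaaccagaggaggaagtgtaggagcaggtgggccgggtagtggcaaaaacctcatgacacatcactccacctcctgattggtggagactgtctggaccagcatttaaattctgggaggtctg
Epcam (chr17:87635729-87635978, plus strand): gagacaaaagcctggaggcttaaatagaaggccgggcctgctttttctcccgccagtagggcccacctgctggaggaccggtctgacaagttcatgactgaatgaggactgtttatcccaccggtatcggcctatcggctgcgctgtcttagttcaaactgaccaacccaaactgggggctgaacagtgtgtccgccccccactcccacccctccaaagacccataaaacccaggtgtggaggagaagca
Krt23 (chr11:99493121-99493370, minus strand): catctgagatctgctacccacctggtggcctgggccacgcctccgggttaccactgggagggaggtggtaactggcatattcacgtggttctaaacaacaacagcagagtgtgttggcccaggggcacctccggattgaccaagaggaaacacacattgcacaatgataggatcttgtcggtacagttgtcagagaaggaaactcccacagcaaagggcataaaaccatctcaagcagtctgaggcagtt

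The Prom1 window held TTCCCA, the reverse complement of the RBPJ motif, at 116 to 111 bases before the start, and the AP-1 motif TGACTCA at 88 to 82. The windows of Krt7 and Cftr and a second window of Spp1 held no match either, and a second window of Prom1 held 1 AP-1 motif, TGAATCA. Both windows of Prom1 and the second window of Spp1 lie inside the annotated spans of these genes, before internal starts. All matches found were thus in sequence within the Prom1 gene. The 9 genes lie on 6 chromosomes, and Krt19, Krt23 and Sox9 share chromosome 11.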

How the data were processed

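Bulk RNA-seq of liver from 3 AAV8-TBG-GFP and 3 AAV8-TBG-Cre mice was analysed, grouped by the vector in the sample titles. The authors deposited an expected count per RefSeq transcript and library, without normalization, and FPKM per transcript and per gene, scaled by transcript length and by mapped fragments. The submitters' processing notes list HISAT2, Bowtie2, RSEM and the build mm10, whereas the paper lists STAR, HTSeq and DESeq2. The deposited expected counts were added up by NCBI gene ID, then rounded, with totals of 20356466 to 21010527 per library, and 0% of them had no gene ID. No replicate pair matched within counting noise (chi-square of 26.0 or more per gene). The labels do not say more of the replicates than their numbers, so p-values measure the spread between these livers.

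Groups were compared by edgeR's quasi-likelihood test (version 4.0.16, R 4.3.3) after TMM and filterByExpr, with the vector as the only factor and Benjamini-Hochberg adjustment over the 13431 genes tested. A standard error is the size of the fold change divided by the root of its F statistic. Genes were called at an adjusted p-value under 0.05, or at an unadjusted p-value under 0.05 with a fold change of at least 1.2. Single values were compared with exact permutation tests, whose smallest two-sided p is 0.1 here. The likeness of profiles used log2(CPM + 0.1). Alternatives were DESeq2 1.42.0, other normalizations (upper quartile, RLE), other filters on counts, a replicate block, short or long library name as a covariate, limma 3.58.1 on FPKM of at least 0.5 in 3 libraries or without that filter, and leaving out each library. The scripts were tested on simulated counts. The 9 genes, the gene lists and the motifs were chosen with earlier results of these data known. Named genes were the 9, Mettl14, the 5 nearest profiles and, per list, the genes called by adjusted p and the 3 with the smallest p (for the cell type markers these 3 are not all named), and any other gene named from a list was picked with its value in view. The counting is not stated to use strand. Some listed genes are counted but not reported by name here, and 1 motif is not reported here.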

Additional observations from a re-analysis of the deposited data

How the results depend on the processing

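All 140 log2 fold changes of single genes under the 16 alternatives were positive, 90 of them stayed on their side of the adjusted threshold, 36 lost a call and 14 gained one. The number of genes called by adjusted p among the 9, which was 3, became 8 with DESeq2, 7 without a filter on low counts, 1 with RLE, and 0 with upper quartile normalization, with at least 10 counts in every library (7 genes tested), with the replicate block, and with limma on log2(FPKM + 1), on log2(FPKM + 0.1) or without its filter. It ranged from 0 to 8 when 1 library was left out, and was 2 with short or long name as a covariate. In each of these analyses 6 to 9 genes passed the unadjusted threshold, against 8.18% to 16.4% of all genes called higher. The share of all genes called higher by the adjusted p-value was 4.06% with DESeq2, 1.29% without the filter, 0.00745% with the block, 0.7% with the name covariate, 4.21% without AAV8-TBG-Cre replicate 1 and 0 to 0.0292% without any other library, against 0.484%. This share was 0.365% with RLE, 0.231% with upper quartile normalization and 0.226% with at least 10 counts in every library. With limma it was 0.0824% on log2(FPKM + 1), 0.124% on log2(FPKM + 0.1) and 0.0271% without its filter. The number called at the unadjusted threshold ranged from 8 to 9 when 1 library was left out, against 8.18% to 14.8% of all genes called higher. The number without overlap ranged from 8 to 9. The share of all genes for that count was not computed with a library left out. Fewer libraries separate more readily, so it cannot be set beside the share from all 6. The median log2 fold change of 2.39 was 1.51 with limma on log2(FPKM + 1) and 1.37 with it and no filter, and ranged from 1.94 (without AAV8-TBG-Cre replicate 2) to 2.97 (without AAV8-TBG-GFP replicate 1). Limma on FPKM moved the median of all genes to 0.11 with a pseudocount of 1 and 0.14 with 0.1, from -0.0060.

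The labels give same-numbered libraries only a number in common. Their deviations from the group means correlated by 0.0090, -0.26 and 0.21 for replicates 1, 2 and 3. Deviations within so small a group constrain each other, so these values cannot settle whether the libraries were paired. With the replicate block 1 gene of all tested was called higher, against 65 without it, and the block also leaves fewer degrees of freedom. Not every library correlated best with its own number. Cftr had 1 to 6 counts in AAV8-TBG-GFP libraries, and its log2 fold change ranged from 0.29 with limma on log2(FPKM + 1) and no filter, where the pseudocount exceeds its FPKM, to 4.74 without AAV8-TBG-GFP replicate 1. That of Krt23 ranged from 0.32 without AAV8-TBG-GFP replicate 3 to 1.18 without AAV8-TBG-GFP replicate 2.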
